A study of Homo sapiens with 8 samples.

Results

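The synaptic vesicle and exocytosis genes are 38 genes, taken by symbol from the 26372 symbols of an RNA-seq table, that encode proteins of synaptic vesicles, SNARE fusion, the active zone and dense-core granules. All 38 were in the table, and 34 had the mean of at least 0.5 FPKM (fragments per kilobase of transcript, scaled to all mapped fragments) needed for a test. RNA came from BE(2)-M17, a human neuroblastoma line in long use. Of 8 libraries, 4 came from cells kept for 24 h in 10 ng/ml interferon-γ (IFN-γ), a cytokine secreted by activated lymphocytes, and 4 from untreated cells. All were made from total RNA of this 1 line depleted of ribosomal RNA. Whether a group's 4 libraries were separate cultures is not in the labels, so p-values measure the spread between libraries, which may be technical. The growth protocol also names SH-SY5Y cells, but every sample is labelled M17.

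A neuroendocrine cell stores transmitters and peptides in synaptic-type vesicles and dense-core granules, the peptides in the granules. The granules bud from the Golgi filled with granins, and both kinds of vesicle are docked, primed for fusion and opened by SNARE proteins when calcium binds a synaptotagmin. Membrane is then taken back by clathrin and dynamin. Sympathoadrenal cells, the lineage of neuroblastoma, use this machinery to release catecholamines and granule peptides.

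The treatment could be read from the same values. GBP1, a guanylate-binding protein that IFN-γ induces, averaged 546 ± 15.5 FPKM with IFN-γ and 0.0240 ± 0.0106 FPKM in untreated cells (SD, n = 4 each). The sympathoadrenal markers HAND2, GATA3, TH and DBH and the oncogene MYCN were present and not called different. For HAND2 and MYCN the 4 IFN-γ values still lay wholly below the 4 untreated ones, as in 12.9% of all genes tested. HAND2 averaged 297 ± 4.82 FPKM with IFN-γ and 307 ± 2.62 FPKM in untreated cells. MYCN averaged 1817 ± 93.0 FPKM with IFN-γ and 2003 ± 26.1 FPKM in untreated cells. The summed level of 12 markers of leukocytes, endothelium, fibroblasts and glia was 164 to 222 FPKM with IFN-γ and 160.0 to 170.3 FPKM in untreated cells. The fibroblast markers DCN and LUM carried it, DCN at 143 ± 22.3 FPKM with IFN-γ and 139.9 ± 4.40 FPKM in untreated cells and LUM at 32.5 ± 6.29 FPKM with IFN-γ and 20.3 ± 0.923 FPKM in untreated cells. The other 10 stayed at or under 1.93 FPKM in every library, CD3E at 0 throughout. Of the 12, limma called LUM higher and COL1A1 lower. Depth, estimated from the steps between low values, was 13.9 to 20.3 M fragments per library (M, mega). IFN-γ replicate 4 stood apart when each library was set against the mean of the others in its group. Its deviation fell with transcript length (Spearman rho −0.69 over the 34 tested genes and −0.41 over 12700 genes). Over the 34, rho was −0.09 to 0.13 in the untreated libraries. It was 0.44 to 0.55 in IFN-γ replicates 1 to 3, whose reference includes replicate 4, so these are not independent of it. These rho values describe genes measured in the same libraries and are given without a test. The part of these markers and of replicate 4 in the differences was not tested, and results are given without replicate 4 wherever that changes a call.

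With IFN-γ, 8 of the 34 tested genes rose and 12 fell on the scale of the deposited FPKM (limma, adjusted p at or under 0.05), which is 58.8%, beside 22.3% of all 13598 genes tested. By direction, 13.3% of all genes were higher and 9.05% lower. The synaptic genes and their grouping by role were chosen with earlier results of these data known. The part of that choice in their differences from all genes, here and below, was not tested. Among genes averaging 10 FPKM or more, which are measured more precisely, 6 of the 26 such synaptic genes were higher and 10 lower, beside 16.9% and 9.06% of all 6466 genes at that level, 26% in either direction. The changes were mostly small. The median absolute log2 change was 0.22 in the 34 genes and 0.13 in all genes, and only STXBP5, VAMP1 and SV2C both passed the test and changed at least 1.5-fold, which 6.68% of all genes did. The median log2 change was −0.10 in the 34 genes and −0.0047 in all genes. In 21 of the 34 the 4 values of a group lay wholly above the 4 of the other, 8 higher and 13 lower, beside 15.4% and 12.9% of all genes, 28.2% in either direction. Without IFN-γ replicate 4, 10 were higher and 12 lower, beside 15.8% and 12.5% of 13609 genes, 28.3% in all. In bulk RNA, fewer cells of a type and less RNA per cell cannot be told apart.

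The signs of the 12 falls turned in TPM and in no other scaling tried, whereas the calls of some genes moved with other scalings too. Rescaled to TPM, the median of all genes moved by 0.79 on the log2 scale, 19 of the 34 genes were called higher and none lower, beside 69.4% and 0.147% of all genes, and each of the 12 falls turned positive. SNORD3A, a small nucleolar RNA, held 53.2, 57.9, 5.97 and 55.7% of the FPKM sum in the untreated libraries and was listed at 0 with IFN-γ. Relative to that shift of all genes, the 8 rises lay between 0.21 and 1.17 and the 12 falls between −0.66 and −0.14 in TPM. In TPM computed without short RNA genes, 5 were higher and 13 lower, beside 8.43% and 13% of all genes. With quantile normalization 6 were higher and 15 lower, beside 10.8% and 18.9% of all genes. Median-of-ratios scaling, by each library's median ratio to the genes' means, gave 8 higher and 12 lower, beside 13.1% and 9.24%. With the replicate number as a block, 8 were higher and 11 lower, beside 12.1% and 7.48% of all genes. Below, rose and fell refer to the deposited scale, changes are log2(FPKM + 0.1) ± SE, which understates the change of low genes, means are ± SD (n = 4 each), and values of single libraries are in the order of replicates 1 to 4.

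**Figure D1:**
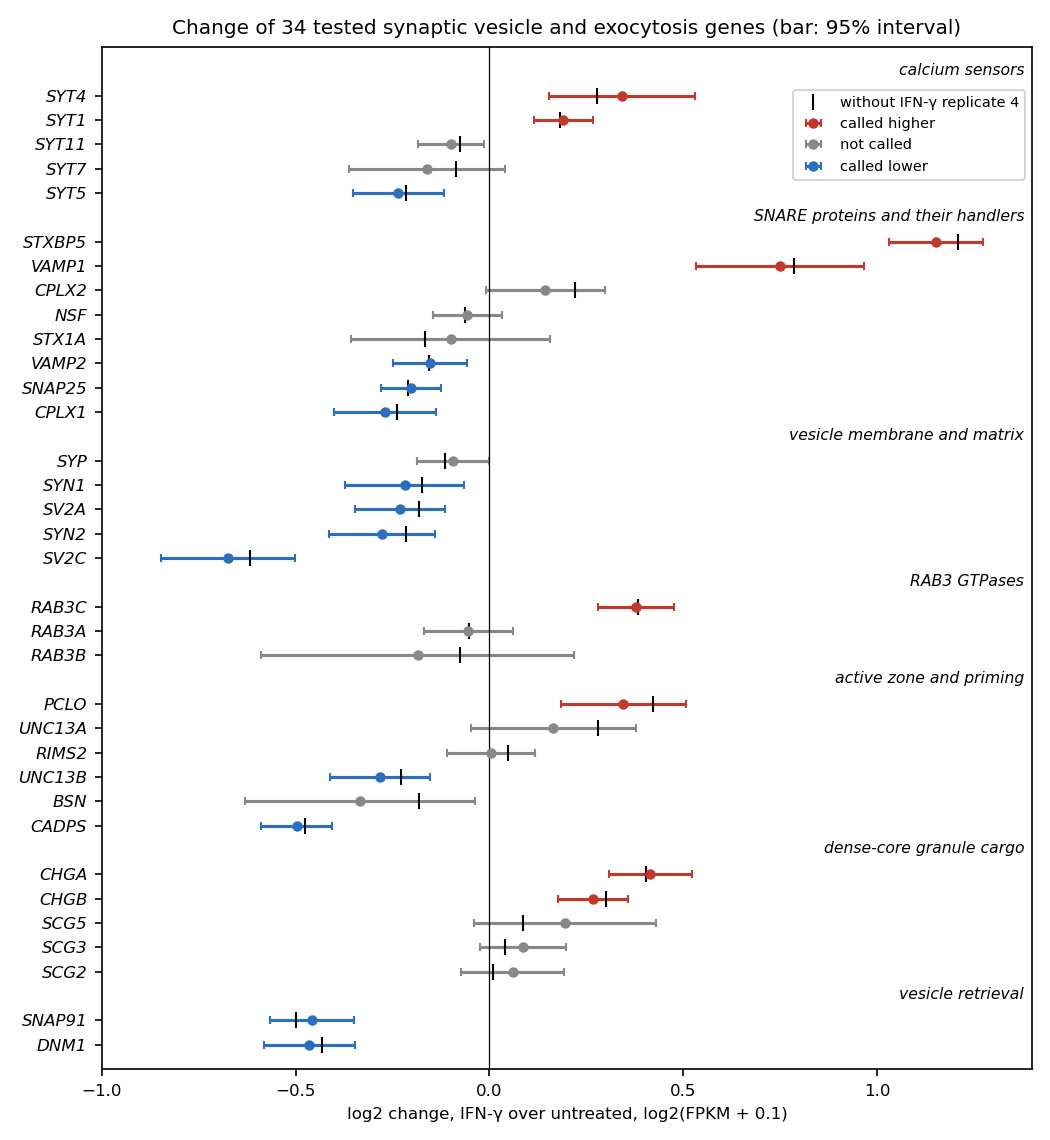
Log2 change with IFN-γ relative to untreated cells for the 34 tested genes, grouped by role, with 95% intervals from limma on log2(FPKM + 0.1); red marks genes called higher, blue genes called lower, grey genes not called, and the black tick the value without IFN-γ replicate 4. STXBP5 at 1.15 and SV2C at −0.67 are the extremes. All 5 tested vesicle membrane genes lie below 0 and all 5 granule cargo genes above it on this scale. In TPM, where the median of all genes moved by 0.79, all of them lie above 0. With quantile normalization and in TPM without short RNA genes, SCG2 and SCG3 are slightly negative.

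Promoter sequence was available from RefSeq (GRCh38.p14, 250 bases before to 50 after a start) for 30 of the 38 genes, in 42 entries among 35116. The first set below shows the starts of the genes with the largest rises and the largest fall, STXBP5, VAMP1 and SV2C, and of SYT4, from 250 bases before to 10 after the start, 5′ to 3′ on the gene's strand. Capitals mark a match to TTCNNNGAA, the gamma-activated site, or to the core of the interferon-stimulated response element, a pair of TTTC with 2 bases between, searched on both strands in the full windows. STXBP5 (chr6:147204167-147204426, forward strand), VAMP1 (chr12:6470668-6470927, reverse strand) and SV2C (chr5:76083133-76083392, forward strand) held neither. SYT4 (chr18:43277481-43277740, reverse strand) held 1 gamma-activated site match, which begins 5 bases before the start and runs across it.
STXBP5: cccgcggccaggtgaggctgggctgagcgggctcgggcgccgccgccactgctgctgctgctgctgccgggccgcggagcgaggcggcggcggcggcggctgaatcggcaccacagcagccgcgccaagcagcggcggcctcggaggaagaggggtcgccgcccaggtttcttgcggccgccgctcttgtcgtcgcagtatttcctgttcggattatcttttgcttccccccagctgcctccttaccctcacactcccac
VAMP1: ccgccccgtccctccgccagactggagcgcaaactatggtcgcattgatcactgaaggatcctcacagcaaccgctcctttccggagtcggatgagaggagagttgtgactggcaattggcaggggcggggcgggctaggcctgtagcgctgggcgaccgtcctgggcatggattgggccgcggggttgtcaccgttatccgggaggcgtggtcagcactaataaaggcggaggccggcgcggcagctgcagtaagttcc
SV2C: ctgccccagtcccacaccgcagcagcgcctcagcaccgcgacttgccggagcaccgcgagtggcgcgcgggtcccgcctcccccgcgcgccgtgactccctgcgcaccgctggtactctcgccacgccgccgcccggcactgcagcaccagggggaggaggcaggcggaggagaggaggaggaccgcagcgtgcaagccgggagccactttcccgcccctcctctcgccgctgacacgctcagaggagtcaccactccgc
SYT4: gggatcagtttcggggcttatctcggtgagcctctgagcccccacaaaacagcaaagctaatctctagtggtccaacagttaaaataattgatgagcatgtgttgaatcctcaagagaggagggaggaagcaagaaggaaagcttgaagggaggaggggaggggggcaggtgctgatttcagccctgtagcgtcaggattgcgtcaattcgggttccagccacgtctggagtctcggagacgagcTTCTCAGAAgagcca
SV2A (chr1:149907162-149907190, reverse strand, inside the gene as GENCODE annotates it) held the only other such match, with the same 9 letters, shown with 10 bases on each side.
SV2A: ttaaatgtttTTCTCAGAAaaatttccta
The TTCNNNGAA pattern was thus in 2 of 42 entries (4.76%), beside 7.66% of all promoter entries, and the response element core was in 0 of 42, beside 3.57%. SYT4 rose and SV2A fell with IFN-γ, and STXBP5 and VAMP1, with the largest rises, had no match in these windows. A match here is a description of letters and says nothing of whether a factor was bound.

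The RE1 element, to which the neuronal gene repressor REST binds, was searched by its left part, TTCAGCACC, and its right part, GGACAG, on both strands. TTCAGCACC was in 3 of 42 entries (7.14%), beside 0.376% of all, and the shorter GGACAG was in 9 of 42 (21.4%), beside 20.5%. The 3 matches to the left part are shown in capitals with 10 bases on each side, read on the strand that carries it, for SCG3 (chr15:51681501-51681529, forward strand), UNC13A (chr19:17688330-17688358, forward strand) and SYN1 (chrX:47620072-47620100, reverse strand).
SCG3: tcacaggaacTTCAGCACCcacagggcgg
UNC13A: gccatcttggTTCAGCACCgggggcgcgg
SYN1: cactgccagcTTCAGCACCgcggacagtg
In SYN1, and in none of the other 41 entries, the left and right parts stood 2 bases apart, a search added after each had been found, at chrX:47620074-47620090 on the reverse strand and beginning 233 bases before the start. Capitals mark both parts.
SYN1 element: TTCAGCACCgcGGACAG
The joined pattern was in 5 of the 35116 entries. SYN1 was lower with IFN-γ, as given below, and SCG3 and UNC13A were not called with all libraries. The windows of these genes were rich in G and C, with a median of 67% beside 58.7% in all entries.

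The synaptotagmins, the calcium sensors of the set, divided by member, with SYT1 and SYT4 higher and SYT5 lower in FPKM. In TPM SYT5 turned positive, where the median of all genes was positive too. SYT1, the fast sensor for synchronous release, had 89.7, 92.8, 93.6 and 94.4 FPKM in the IFN-γ libraries and 80.9, 80.0, 80.0 and 83.6 FPKM in the untreated libraries. All 4 IFN-γ values lay above all 4 untreated values, and SYT1 rose by 0.19 ± 0.03 (limma adjusted p = 0.0026). The call rested on the scaling, with an adjusted p of 0.414 after quantile normalization and 0.150 in TPM without short RNA genes. SYT4, a synaptotagmin whose first C2 domain lacks a calcium ligand and which sits on dense-core granules, had 8.31, 7.18, 7.67 and 9.24 FPKM with IFN-γ and 6.16, 5.85, 6.80 and 6.58 FPKM in untreated cells. Its groups did not overlap, and it rose by 0.34 ± 0.08 (adjusted p = 0.0154). SYT5, a calcium-binding synaptotagmin found on dense-core vesicles, had 8.69, 8.15, 8.44 and 7.99 FPKM with IFN-γ and 9.42, 10.4, 9.72 and 9.63 FPKM in untreated cells, again without overlap. It fell, with a change of −0.23 ± 0.05 (adjusted p = 0.00955).

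SYT11 and SYT7 were not called by limma. SYT11, a synaptotagmin that does not bind calcium, had 43.5, 42.3, 41.2 and 39.6 FPKM with IFN-γ and 44.0, 44.2, 45.5 and 44.8 FPKM in untreated cells, which did not overlap, with a change of −0.10 (adjusted p = 0.093). SYT7, a slower sensor with high calcium affinity, averaged 3.92 ± 0.463 FPKM with IFN-γ and 4.37 ± 0.159 FPKM in untreated cells. Its change was −0.16 with a 95% interval of −0.36 to 0.04 (adjusted p = 0.241), which includes 0 and falls larger than that of SYT5, and it was −0.086 without IFN-γ replicate 4. SYT1 made up 59.9% ± 1.28 of the summed FPKM of the 5 synaptotagmins with IFN-γ and 55.5% ± 0.698 in untreated cells.

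STXBP5 had the largest change of the set. The gene encodes tomosyn, which binds syntaxin and SNAP25 through a SNARE-like tail and keeps them from pairing with vesicle VAMP. It had 86.6, 89.7, 86.0 and 74.9 FPKM in the IFN-γ libraries and 37.2, 38.1, 38.3 and 37.5 FPKM in the untreated libraries. The untreated values lay within 1.06 FPKM of each other, and the lowest IFN-γ value, in replicate 4, was still far above them. STXBP5 rose by 1.15 ± 0.05 (limma adjusted p = 1.00e-07), a 2.23-fold increase of the mean, and it was called under each of the 19 alternatives run. Ranked by mean FPKM among the 38 genes it stood 7th with IFN-γ and 12th in untreated cells. The gene spans 147204425 to 147390476 of chromosome 6, forward strand (GENCODE release 29, GRCh38), and its values rested on about 5546 to 14597 fragments per library. An antisense gene, STXBP5-AS1, shares 190 of its 10504 exonic bases and averaged 0.597 ± 0.0607 FPKM with IFN-γ and 0.135 ± 0.0640 FPKM in untreated cells. The library kit named in the labels does not mark strand.

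The vesicle SNAREs divided, VAMP1 rising and VAMP2 falling in FPKM. In TPM VAMP2 too was positive, as was the median of all genes. VAMP1, the synaptobrevin that prevails in spinal cord and brainstem, had 4.76, 3.87, 4.05 and 3.82 FPKM with IFN-γ and 2.44, 2.32, 2.68 and 2.19 FPKM in untreated cells. All IFN-γ libraries were above all untreated ones, and VAMP1 rose by 0.75 ± 0.10 (limma adjusted p = 0.000298), 1.71-fold, on about 123 to 301 fragments per library. VAMP1 (chromosome 12, 6462237 to 6470987, reverse strand) shares 339 of 3580 exonic bases with TAPBPL on the other strand, a gene of antigen presentation at 12.2 ± 0.706 FPKM with IFN-γ and 1.75 ± 0.119 FPKM in untreated cells. Without strand, fragments in those bases cannot be assigned, and the part of TAPBPL in the VAMP1 values was not tested. VAMP2, the main synaptobrevin of forebrain and of chromaffin granules, had 12.1, 12.4, 11.5 and 12.1 FPKM with IFN-γ and 13.0, 13.6, 13.6 and 13.3 FPKM in untreated cells. The groups did not overlap and VAMP2 fell, with a change of −0.15 ± 0.04 (adjusted p = 0.0277). That call was lost without IFN-γ replicate 1 or 3 or untreated replicate 2, 3 or 4 (0.0536 to 0.0828) and with the replicate number as a block (0.0739). VAMP1 thus made up 25.6% ± 2.05 of the VAMP1 and VAMP2 total with IFN-γ and 15.3% ± 1.07 in untreated cells.

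Among the target SNAREs, SNAP25 fell and STX1A was not called. SNAP25, which contributes a pair of helices to the fusion complex, had 49.9, 51.6, 51.5 and 52.1 FPKM with IFN-γ and 57.2, 60.8, 58.5 and 59.6 FPKM in untreated cells. Every IFN-γ value was lower than every untreated value, with a change of −0.20 ± 0.03 (limma adjusted p = 0.00189). STX1A, the plasma membrane syntaxin, had 8.15, 7.57, 9.10 and 9.91 FPKM with IFN-γ and 11.6, 8.64, 8.56 and 8.56 FPKM in untreated cells. Untreated replicate 1 was high, the groups overlapped, and the change of −0.10 had a 95% interval of −0.36 to 0.16 (adjusted p = 0.588), and it became 0.0082 without that library.

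The complexins, which clamp and then promote fusion of assembled SNARE complexes, also differed by member. CPLX1 fell in FPKM (positive in TPM, as was the median of all genes) and CPLX2 was not called. CPLX1 had 20.2, 21.0, 21.2 and 19.1 FPKM with IFN-γ and 26.0, 24.3, 26.0 and 22.2 FPKM in untreated cells, without overlap, and fell, with a change of −0.27 ± 0.06 (adjusted p = 0.0088). CPLX2 had 53.0, 52.6, 53.4 and 42.8 FPKM with IFN-γ and 47.0, 45.6, 45.0 and 44.3 FPKM in untreated cells. IFN-γ replicates 1 to 3 lay above the untreated libraries and replicate 4 below them, and the change of 0.14 ± 0.07 was not called (adjusted p = 0.168). Without replicate 4 it was 0.22 and called higher (0.000221), and over all alternatives its adjusted p ran from 0.000221 to 0.735. NSF, the ATPase that takes spent SNARE complexes apart, had 16.1, 16.3, 17.4 and 16.9 FPKM with IFN-γ and 17.1, 17.2, 17.6 and 17.4 FPKM in untreated cells and was not called, with a change of −0.06 and an interval of −0.15 to 0.03 (adjusted p = 0.346).

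**Figure D2:**
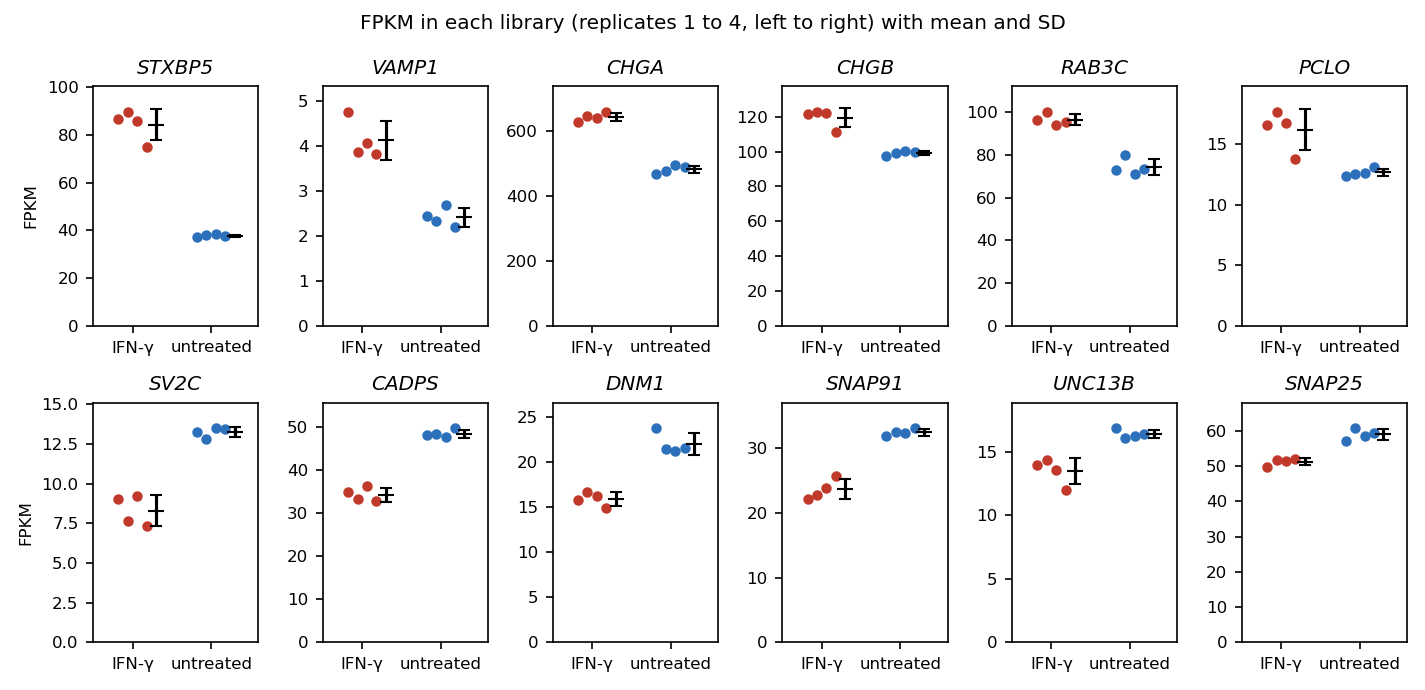
FPKM in each of the 4 IFN-γ libraries (red) and 4 untreated libraries (blue) for 6 genes called higher and 6 called lower, with the mean and SD beside the points and axes from 0. In each of the 12 genes the groups do not overlap, and IFN-γ replicate 4, the last red point, is the lowest IFN-γ library in all of them but CHGA, RAB3C, SNAP91 and SNAP25.

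Of the proteins on the vesicle membrane or bound to it, 4 of 5 tested genes fell with IFN-γ and none rose on the FPKM scale. On that scale 9.05% of all genes were lower. All 5 turned positive in TPM, where 69.4% of all genes were called higher. Relative to the median of all genes in TPM, they lay between −0.66 (SV2C) and −0.08 (SYP). SV2C, a transporter-like glycoprotein of the vesicle membrane, had 9.00, 7.62, 9.25 and 7.32 FPKM with IFN-γ and 13.3, 12.8, 13.5 and 13.4 FPKM in untreated cells. The highest IFN-γ value was well under the lowest untreated one. SV2C fell, with a change of −0.67 ± 0.08 (limma adjusted p = 0.000126), the largest fall of the set, and its mean fell by 37.3%. SV2A, its relative and the target of the antiepileptic drug levetiracetam, had 31.0, 29.5, 30.8 and 26.6 FPKM with IFN-γ and 35.7, 34.2, 34.2 and 34.1 FPKM in untreated cells. It fell less, with a change of −0.23 ± 0.05 (adjusted p = 0.00959), and SV2A made up 78.0% ± 1.15 of the SV2 total with IFN-γ and 72.3% ± 0.652 in untreated cells. SV2B was too low to test, at most 0.0526 FPKM with IFN-γ and 0.00526 FPKM in untreated cells, where 1 library listed it at 0.

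The synapsins tether vesicles to each other and to actin. SYN2 had 15.3, 14.8, 14.6 and 12.5 FPKM with IFN-γ and 17.1, 17.8, 17.0 and 17.3 FPKM in untreated cells, without overlap, and fell, with a change of −0.28 ± 0.06 (adjusted p = 0.00925). SYN1 had 9.60, 8.70, 8.81 and 7.95 FPKM with IFN-γ and 10.8, 10.6, 9.95 and 9.45 FPKM in untreated cells. IFN-γ replicate 1 reached into the untreated range, and the change of −0.22 ± 0.07 passed narrowly (adjusted p = 0.0455). It was lost without IFN-γ replicate 2, 3 or 4 or untreated replicate 1, 2 or 3 (0.0615 to 0.122). SYN3 averaged 0.0895 FPKM with IFN-γ and 0.114 FPKM in untreated cells and was not tested. SYP, synaptophysin, an abundant integral protein of small vesicles, had 36.5, 35.1, 34.6 and 37.4 FPKM with IFN-γ and 39.6, 36.4, 38.1 and 39.1 FPKM in untreated cells, which overlapped. Its change of −0.09 ± 0.04 was not called (adjusted p = 0.144), and leaving out IFN-γ replicate 4 made it a called fall (0.0414), in a range over alternatives of 0.00443 to 0.304.

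The RAB3 GTPases, which mark vesicles for docking, were led by RAB3C in level and in change. RAB3C had 96.2, 100.1, 93.9 and 95.3 FPKM with IFN-γ and 72.8, 79.7, 71.2 and 73.2 FPKM in untreated cells, so even the highest untreated library, replicate 2, was below every IFN-γ library. It rose by 0.38 ± 0.04 (limma adjusted p = 0.00013) and was called under all 19 alternatives. RAB3A, the isoform best known from brain synapses, had 23.4, 26.3, 25.0 and 24.8 FPKM with IFN-γ and 25.2, 27.8, 24.4 and 26.0 FPKM in untreated cells, which overlapped, with a change of −0.05 and a 95% interval of −0.17 to 0.06 (adjusted p = 0.506). RAB3A shares 165 of 1818 exonic bases with MPV17L2 on the other strand, at 7.33 ± 1.35 FPKM with IFN-γ and 6.28 ± 0.967 FPKM in untreated cells. RAB3B averaged 0.581 ± 0.102 FPKM with IFN-γ and 0.670 ± 0.0735 FPKM in untreated cells, near the limit for testing, and was not called (adjusted p = 0.516). RAB3C made up 79.1% ± 0.605 of the RAB3 total with IFN-γ and 73.7% ± 0.318 in untreated cells.

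At the active zone, the site of the membrane where vesicles fuse, the large scaffolds PCLO and BSN had changes of opposite sign. PCLO (piccolo) had 16.6, 17.7, 16.8 and 13.8 FPKM with IFN-γ and 12.4, 12.6, 12.7 and 13.1 FPKM in untreated cells, and rose by 0.35 ± 0.07 (limma adjusted p = 0.00644). IFN-γ replicate 4 was its lowest IFN-γ value and still above all untreated ones, and in TPM without short RNA genes the call was lost (0.110). BSN (bassoon) had 3.84, 3.79, 3.62 and 2.43 FPKM with IFN-γ and 4.32, 4.18, 4.33 and 4.24 FPKM in untreated cells. The groups did not overlap, but replicate 4 lay far under the other IFN-γ libraries, and the change of −0.33 ± 0.13 was not called (adjusted p = 0.105). Without replicate 4 it was −0.18 and not called. BSN made up 17.3% ± 1.61 of the BSN and PCLO total with IFN-γ and 25.2% ± 0.621 in untreated cells. RIMS2, a scaffold that binds RAB3 and calcium channels, had 18.8, 18.6, 18.7 and 16.6 FPKM with IFN-γ and 17.7, 17.9, 17.8 and 19.0 FPKM in untreated cells and a change of 0.0046, with an interval of −0.11 to 0.12 (adjusted p = 0.964). RIMS1 averaged 0.129 FPKM with IFN-γ and 0.211 FPKM in untreated cells and was not tested.

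The priming factors, which ready docked vesicles for fusion, included the fall with the smallest adjusted p. CADPS, which primes dense-core granules by way of phosphoinositides and SNAREs, had 34.9, 33.3, 36.5 and 32.9 FPKM with IFN-γ and 48.3, 48.4, 47.7 and 49.8 FPKM in untreated cells. The libraries of each group lay close together and far from the other group. CADPS fell, with a change of −0.50 ± 0.04 (limma adjusted p = 1.05e-05), its mean fell by 29.2%, and it ranked 12th of the 38 genes in level with IFN-γ and 8th in untreated cells. Its relative CADPS2 was listed at 0 in 7 libraries and at 0.0187 FPKM in IFN-γ replicate 3. UNC13B, a diacylglycerol-responsive opener of syntaxin, had 14.0, 14.4, 13.5 and 12.0 FPKM with IFN-γ and 16.8, 16.1, 16.2 and 16.4 FPKM in untreated cells, without overlap, and fell, with a change of −0.28 ± 0.06 (adjusted p = 0.00575). UNC13A, the main isoform of glutamatergic synapses, had 27.5, 27.5, 26.6 and 19.8 FPKM with IFN-γ and 22.1, 22.3, 22.7 and 22.6 FPKM in untreated cells. IFN-γ replicates 1 to 3 were above the untreated libraries and replicate 4 below them, and the change of 0.17 ± 0.10 was not called (adjusted p = 0.256). Without replicate 4 it was 0.28 and called higher (6.81e-05), and over all alternatives its adjusted p ran from 6.81e-05 to 0.705. UNC13A made up 65.1% ± 1.97 of the UNC13 total with IFN-γ and 57.8% ± 0.729 in untreated cells.

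The granule cargo genes CHGA, SCG2, CHGB and SCG3 had the highest mean FPKM of the 38 genes in both groups, SCG5 being lower. Of these 5, 2 rose with IFN-γ and none fell, where 13.3% of all genes were higher. CHGA, chromogranin A, which drives granule formation and is a precursor of secreted peptides, had 626, 643, 638 and 658 FPKM with IFN-γ and 467, 476, 493 and 487 FPKM in untreated cells. No IFN-γ value came near the untreated range, and CHGA rose by 0.42 ± 0.05 (limma adjusted p = 0.000125) on about 15636 to 27585 fragments per library. CHGB, its relative, had 122, 123, 122 and 111 FPKM with IFN-γ and 97.6, 99.0, 100.3 and 99.6 FPKM in untreated cells, without overlap, and rose by 0.27 ± 0.04 (adjusted p = 0.000894). The CHGB call was lost with quantile normalization (0.216) and in TPM without short RNA genes (0.0947).

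The other 3 cargo genes were not called, and each had its highest value in IFN-γ replicate 4. SCG2, the precursor of secretoneurin, had 429, 435, 432 and 498 FPKM with IFN-γ and 428, 414, 436 and 440.0 FPKM in untreated cells, with a change of 0.06 (limma adjusted p = 0.522). SCG3, which links chromogranin A to granule membrane, had 96.3, 98.3, 94.1 and 110.0 FPKM with IFN-γ and 92.6, 94.8, 94.1 and 93.0 FPKM in untreated cells, with a change of 0.09 (adjusted p = 0.247). SCG5, the chaperone of a prohormone convertase, had 20.2, 19.0, 19.9 and 26.6 FPKM with IFN-γ and 19.0, 16.4, 18.6 and 20.4 FPKM in untreated cells, with a change of 0.20 (adjusted p = 0.222). Without IFN-γ replicate 4 the changes were 0.0086 for SCG2, 0.039 for SCG3 and 0.088 for SCG5. SCG2 and SCG3 turned slightly negative with quantile normalization and in TPM without short RNA genes. The 5 cargo genes together held 62.4, 62.6, 62.5 and 65.6% of the summed FPKM of the 38 genes in the IFN-γ libraries and 59.6, 59.4, 60.7 and 60.4% in the untreated libraries. Within the cargo, CHGA took 48.2% ± 0.928 with IFN-γ and 42.9% ± 0.436 in untreated cells, and SCG2 took 33.7% ± 1.19 with IFN-γ and 38.3% ± 0.496 in untreated cells.

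Both genes of vesicle retrieval fell on the FPKM scale, where 9.05% of all genes were lower. Both turned positive in TPM, where the median of all genes moved by 0.79. DNM1, the neuronal dynamin that pinches endocytic vesicles off, had 15.8, 16.7, 16.3 and 14.9 FPKM with IFN-γ and 23.7, 21.4, 21.2 and 21.5 FPKM in untreated cells. The groups were far apart, and the change was −0.46 ± 0.05 (limma adjusted p = 0.000112). SNAP91, which gathers clathrin and helps recover vesicle SNAREs, had 22.1, 22.7, 23.9 and 25.6 FPKM with IFN-γ and 31.8, 32.4, 32.3 and 33.0 FPKM in untreated cells. It fell as clearly, with a change of −0.46 ± 0.05 (adjusted p = 7.39e-05), and neither call was lost under any of the other 18 alternatives.

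A share within a library does not change with any factor common to all its genes, so paralogs were also compared as the share of the first-named gene in the summed FPKM of its family. In 9 of 11 families the shares of the IFN-γ and untreated libraries did not overlap. Among single genes 28.2% did not overlap in FPKM, which is a different measure. Shares within other gene families were not examined, so whether the count is particular to these 11 is not known. Each of the 9 gave an exact two-sided permutation p of 0.0286, the smallest that 4 against 4 libraries allow, and 0.0349 after Benjamini-Hochberg adjustment over the 11. VAMP1 gained 10.3 percentage points with IFN-γ, UNC13A 7.35, SV2A 5.72, CHGA 5.37 and SYT1 4.45. The part of TAPBPL, which shares exonic bases with VAMP1, in the gain of VAMP1 was not tested. The share of BSN changed by −7.88 points, that of CPLX1 by −6.24 and that of RAB3A by −5.24. RIMS1 held 0.712% ± 0.256 of the RIMS total with IFN-γ and 1.15% ± 0.146 in untreated cells, a change of −0.43 points. RIMS1 was too low for the test of single genes, at about 9.9 to 29.9 fragments per library. Its share of 1.00% in IFN-γ replicate 4 was just under the lowest untreated share, 1.03% in replicate 3. The synapsins kept nearly the same proportions, with SYN1 at 37.9% ± 0.816 with IFN-γ and 36.9% ± 1.45 in untreated cells (exact permutation p = 0.286, adjusted 0.314), although both SYN1 and SYN2 were lower. CADPS made up nearly all of its family in every library (exact permutation p = 1). All 9 differences kept their sign with any 1 library left out, as they must where the groups do not overlap.

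**Figure D3:**
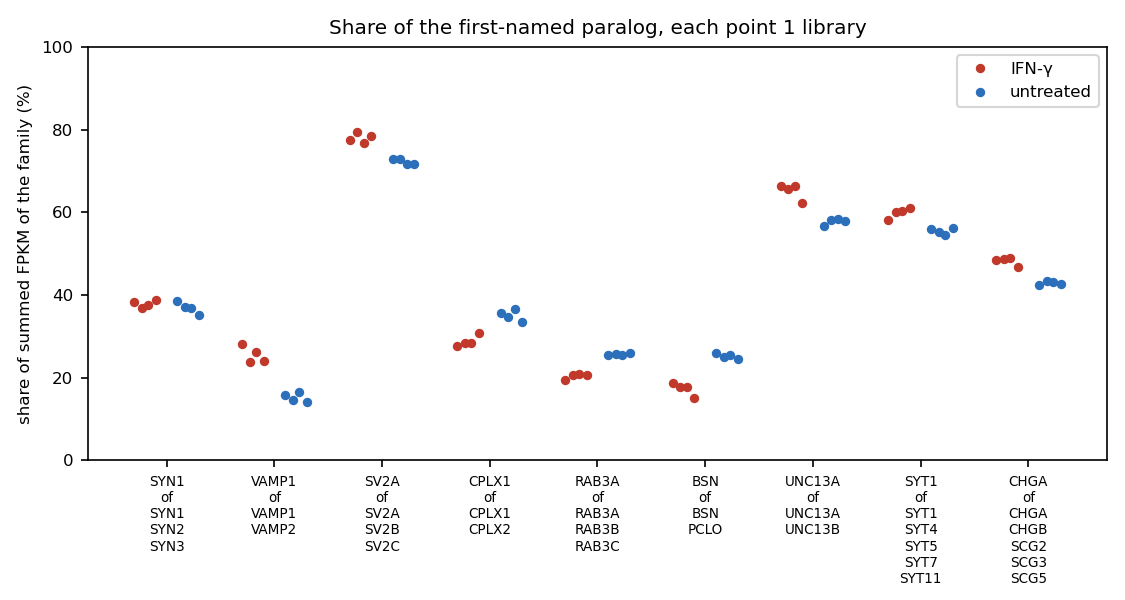
Share, in percent of the summed FPKM of its family, of the first-named paralog in each IFN-γ library (red) and each untreated library (blue), for 9 families. The groups are apart in 8 of the 9 drawn, VAMP1 at 25.6% with IFN-γ and 15.3% in untreated cells the widest, and overlap for SYN1. Fragments of TAPBPL in exonic bases shared with VAMP1 were not separated. The RIMS and CADPS families, in which 1 gene holds nearly everything, are not drawn.

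The deviation of IFN-γ replicate 4 by transcript length can be read gene by gene. The longest annotated transcripts of the 34 genes have a median of 4263 bases, beside 3602 for all genes, and run from 1238 to 20329. BSN was 0.60 lower (log2) in replicate 4 than in the mean of IFN-γ replicates 1 to 3, and UNC13A 0.46 and RAB3B 0.44 lower. SCG5, with the shortest transcript, was 0.43 higher, and STX1A and SYT4 were each 0.26 higher. The change with IFN-γ itself had a rho with length of −0.15 over the 34 genes with all libraries and 0.0047 without replicate 4, as a description over genes of the same libraries.

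**Figure D4:**
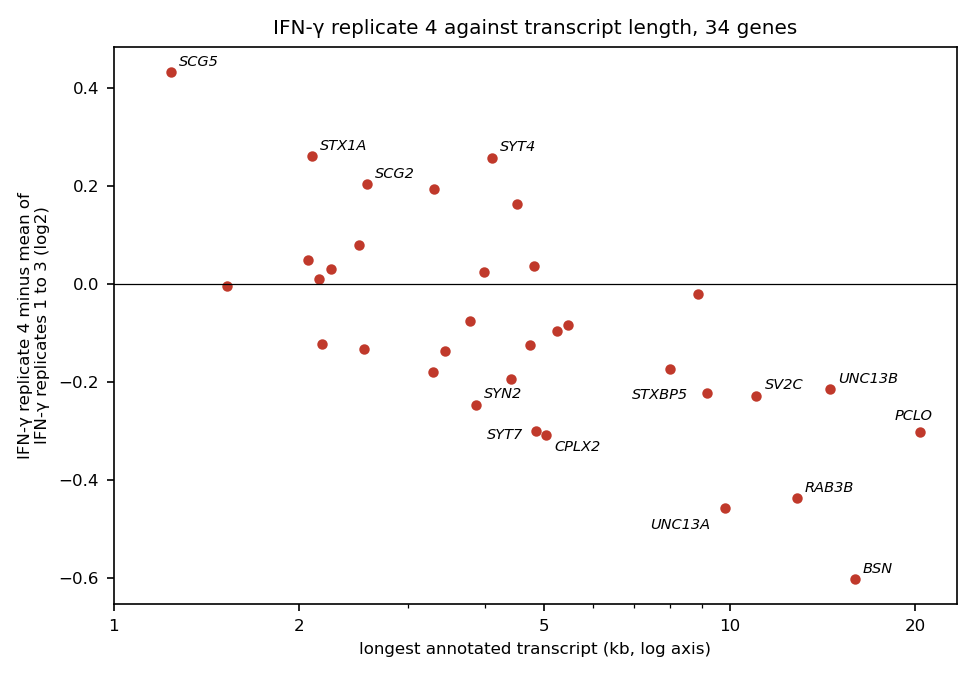
Log2 difference of IFN-γ replicate 4 from the mean of IFN-γ replicates 1 to 3, against the length of the longest annotated transcript (kilobases, log axis), 1 point for each of the 34 tested genes. SCG5, at 0.43, is the highest point and BSN, at −0.60, the lowest; every transcript over 10 kilobases lies below 0, and shorter ones lie on both sides of it.

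Around these 38 genes, 115 other genes of exocytosis and vesicle recycling were looked at, of which 87 were tested. This list too was chosen with earlier results of these data known. With IFN-γ 18 rose and 12 fell, 34.5%, beside 22.3% of all genes, and their median log2 change was −0.013. The largest called rises, among genes that averaged 1 FPKM or more in one group, were those of VAMP5, STON2, RAB27A and SYT17. VAMP5, a SNARE-like protein first found in muscle, averaged 25.5 ± 4.21 FPKM with IFN-γ and 1.02 ± 0.356 FPKM in untreated cells (4.55 ± 0.20, limma adjusted p = 5.95e-08). RAB27A, a GTPase that brings granules of immune cells and melanocytes to the plasma membrane, averaged 11.6 ± 0.231 FPKM with IFN-γ and 4.12 ± 0.156 FPKM in untreated cells (1.48 ± 0.05, adjusted p = 8.49e-09). STON2, an adaptor for endocytosis of synaptotagmin, averaged 7.21 ± 0.394 FPKM with IFN-γ and 2.30 ± 0.0845 FPKM in untreated cells (1.61 ± 0.07, adjusted p = 4.53e-08), and SYT17 rose by 0.80 ± 0.11 (adjusted p = 0.000415).

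By the same rule, the largest called falls of the list were those of PPFIA2, SLC18A1, SYT3 and SYT9. PPFIA2, a liprin scaffold of the active zone, averaged 6.74 ± 0.441 FPKM with IFN-γ and 13.1 ± 0.547 FPKM in untreated cells (−0.95 ± 0.06, limma adjusted p = 1.11e-06). SLC18A1, the vesicular monoamine transporter of chromaffin cells, averaged 6.06 ± 0.426 FPKM with IFN-γ and 11.0 ± 0.647 FPKM in untreated cells (−0.86 ± 0.07, adjusted p = 6.42e-06). SYT9 fell, with a change of −0.54 ± 0.08 (adjusted p = 0.000853), and SYT3 fell, with a change of −0.70 ± 0.18 (adjusted p = 0.0172), a call that was lost without untreated replicate 1 (0.0552). In TPM, SYT9 and SYT3 turned positive, as did the median of all genes.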

How the data were processed

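RNA-seq of 8 BE(2)-M17 libraries was used, 4 with IFN-γ and 4 untreated, grouped by the treatment in the labels. Per the labels' protocols, libraries of 1 µg total RNA were sequenced as pairs of 150 nt. The deposited values are FPKM per gene, made by the authors with TopHat2 and Cuffdiff on hg38, per the submitters' processing notes, which give no versions. The sources used here name neither the annotation nor any scaling between libraries. FPKM is relative to the mapped total. No counts were used, so depth was estimated from value steps (1 fragment per kilobase was worth 0.0492 to 0.0717 FPKM).

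Of 26372 symbols, the 13598 averaging 0.5 FPKM or more were tested as log2(FPKM + 0.1) by limma 3.58.1 with a mean-variance trend (R 4.3.3), two-sided, Benjamini-Hochberg adjusted over all of them, threshold 0.05. Paralog shares were compared by exact two-sided permutation (SciPy 1.17.1). The 38 genes, the roles and the list of 115 were chosen with earlier results of these data known. All 38 were named; of the 115, up to 4 called genes per direction with the largest change and at least 1 FPKM in the higher group. The restriction to 10 FPKM and the joined RE1 search were added after seeing values. Positions came from GENCODE release 29, promoters from RefSeq, where SYT7, SNAP25, CPLX1, SYN3, RIMS2, CADPS2, CHGB and SCG2 were not matched. Replicates of a group differed by 1.59 to 4.92 times the counting variance, so none was counted as a duplicate. The ratio was 3.71 to 4.92 in pairs with IFN-γ replicate 4 and 1.59 to 2.00 in all other pairs. Some marker genes that were examined are not reported here. The fit was tested on simulated data. Alternatives were 2 other pseudocounts, 2 other filters, 4 other scalings, a replicate block, limma robust or without the trend, and each library left out.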

Additional observations from a re-analysis of the deposited data

Results flagged for a closer look

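In 15 of the 98 groups of 4 libraries examined (15.3%), 1 library lay far from the other 3 by Dixon's test at its 95% critical value, where chance flags about 1 in 20. IFN-γ replicate 4 was that library in 8 of the 15. It was low for CPLX2 (42.8 FPKM, the other IFN-γ libraries 52.6 to 53.4), RIMS2 (16.6 FPKM, the others 18.6 to 18.8), BSN (2.43 FPKM, the others 3.62 to 3.84), UNC13A (19.8 FPKM, the others 26.6 to 27.5) and CHGB (111 FPKM, the others 122 to 123). It was high for SCG2 (498 FPKM, the others 429 to 435) and SCG5 (26.6 FPKM, the others 19.0 to 20.2), and it was low in the share of UNC13A in the UNC13 total (62.2%, the others 65.7 to 66.3%).

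Untreated replicate 1 was high for STX1A (11.6 FPKM, the other untreated libraries 8.56 to 8.64), SV2A (35.7 FPKM, the others 34.1 to 34.2) and DNM1 (23.7 FPKM, the others 21.2 to 21.5). Untreated replicate 4 was high for RIMS2 (19.0 FPKM, the others 17.7 to 17.9). At the lowest levels, SV2B was listed at 0 in untreated replicate 2 and at 0.00521 to 0.00526 FPKM in the others, and CADPS2 was at 0.0187 FPKM in IFN-γ replicate 3 and listed at 0 in the others, which put CADPS at 99.9% of its family there.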

How the results depend on the processing

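Of the 8 rises, 5 (STXBP5, VAMP1, CHGA, RAB3C and SYT4) were called under all 19 alternatives and all 8 with any library left out. Of the 12 falls, 10 were called under all 18 alternatives other than TPM, the exceptions being VAMP2 (12 of 18) and SYN1 (10 of 18). TPM called 9442 genes higher and 20 lower, 19 and 0 of the synaptic genes, and 59 and 0 of the 87 other exocytosis genes. In TPM these changes turned positive: SYT5 0.56, SYT7 0.63, SYT11 0.70, SNAP25 0.60, VAMP2 0.65, STX1A 0.70, CPLX1 0.53, NSF 0.74, SYP 0.71, SYN1 0.58, SYN2 0.52, SV2A 0.57, SV2C 0.12, RAB3A 0.75, RAB3B 0.52, BSN 0.45, UNC13B 0.52, CADPS 0.31, DNM1 0.34, SNAP91 0.35, SYT3 0.049 and SYT9 0.25. The shift of all genes by 0.79 is larger than each of these falls had been, apart from which the cause was not tested. TPM without short RNA genes (median of all genes −0.096) gave 1143 genes higher and 1768 lower and 5 synaptic genes higher, with RIMS2 at −0.087, SCG2 at −0.032 and SCG3 at −0.0038. Quantile normalization (median −0.071) gave 1470 higher and 2564 lower, with RIMS2 at −0.051, SCG2 at −0.011 and SCG3 at −0.053, and called SYT11, SYP and BSN lower. The cause was not tested.

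With 1 library left out, 1484 to 2157 genes were higher and 852 to 1698 lower, 8 to 10 and 10 to 12 of the synaptic genes, and 14 to 19 and 8 to 13 of the others. RIMS2 ran from −0.0124 to 0.0480 and STX1A from −0.17 to 0.0082. Replicate numbers do not mark a shared culture in the labels, and the deviations of same-numbered libraries correlated at −0.03, 0.08, 0.06 and 0.06, so no pairing was assumed. With the replicate block, 8 synaptic genes were higher and 11 lower, and VAMP2 was the only one of the 34 whose call changed. Share tests cannot pass 0.05 with a library left out. The tested genes with the fewest fragments were RAB3B (about 114 to 185 per library) and VAMP1 (about 123 to 301).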
